A study of Mus musculus with 6 samples.

Results

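The factors described here are 10 immediate early transcription factors, the AP-1 subunits Fos, Fosb, Fosl2, Jun, Junb and Jund, the zinc finger factors Egr1, Egr2 and Egr3, and the orphan nuclear receptor Nr4a1. They were chosen by name as factors of this class, with earlier results of these data known. The family genes Fosl1, Egr4, Nr4a2 and Nr4a3 are not among them and are described further below. Each factor is represented by every probe set whose platform annotation names that 1 symbol. All 10 were on the array, of 12393 genes in all, through 12 probe sets of the 22626 fitted, since Jun and Egr2 have 2 each and the others 1 each. The study measured total RNA of CD4+CD25+ T cells, the surface markers by which regulatory T cells are often isolated, from mice of C57BL6 background on Affymetrix Mouse430a arrays. Of the 6 samples, 3 came from mice of the genotype HDAC3-fl/fl_FOXP3cre, called Hdac3 deleted here, and 3 from mice labelled wild type. Hdac3 is a histone deacetylase, and a Cre recombinase named for Foxp3 is meant to remove its floxed gene in cells that express Foxp3, so cells without Foxp3 would keep it. The labels do not say whether the wild type mice carried Cre, and give no age and no number of animals behind a sample. P-values here therefore rest on the spread among 3 samples of a group, and that spread may be only technical.

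Immediate early genes are transcribed within minutes of a stimulus, because the factors that switch them on are already present in the cell and need only be phosphorylated or released. In T cells the antigen receptor drives them through MAP kinases, which act on SRF and its ETS partners, and through calcineurin and NFAT. FOS proteins bind DNA as dimers with JUN proteins, whereas EGR factors bind GC-rich sites and Nr4a1 binds as a nuclear receptor, so the families are induced together but read out through different sites. In mouse T cells Nr4a1 and Egr2 are widely used as reporters of antigen receptor signalling, and macrophages and neutrophils also transcribe FOS, JUN and EGR genes when stimulated.

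The samples differed in more than these genes. The targeted gene Hdac3 measured 8.46, 8.51 and 8.50 log2 in Hdac3 deleted samples, against 9.07, 9.04 and 9.01 in wild type samples, a difference of -0.55 (limma adjusted p = 0.000125). The position of its 1 probe set relative to the floxed exons was not determined, and some label fields of these samples read HDAC11 or HDACII where the title and genotype read HDAC3. All 12 macrophage and monocyte markers measured were higher, with a mean level over the list of 11.4 to 11.5 log2 in Hdac3 deleted samples and 4.89 to 4.99 in wild type samples. All 8 neutrophil markers were higher too, at 10.91 to 10.96 in Hdac3 deleted samples and 4.66 to 4.97 in wild type samples. Csf1r, the macrophage growth factor receptor, averaged 14.2 ± 0.019 in Hdac3 deleted samples and 6.66 ± 0.070 in wild type samples. C1qb, a complement gene, was at least 398-fold higher and S100a8, a neutrophil protein gene, at least 245-fold higher, measured from the top of the range of 27 bacterial control probe sets (2.37 to 5.16 log2), which is taken as background. All 5 T cell markers were lower, and the mean of Cd3d, Cd3e, Cd3g and Cd247 was 10.75 ± 0.017 in Hdac3 deleted samples and 12.22 ± 0.043 in wild type samples, a difference of -1.47. Of 4 B cell, 4 dendritic cell, 3 natural killer cell, 4 erythroid and 2 CD8 T cell markers measured, 1, 2, 2, 1 and 0 were higher and 0, 0, 0, 1 and 1 lower. Of 5 regulatory T cell markers 1 was higher and 2 lower. The 1 Foxp3 probe set, named as a check of the labelled cells after its values were seen, did not rise out of background in either group (3.68 ± 0.153 in Hdac3 deleted samples and 3.77 ± 0.291 in wild type samples). Whether this probe set can detect Foxp3 was not tested. The rest of the list, also named after its values were seen, had means above background in both groups. Ikzf2 was close to background in Hdac3 deleted samples, at 5.46, 5.29 and 5.10 against a top of 5.16. In Hdac3 deleted and wild type samples, Ctla4 averaged 11.27 and 11.20, Tnfrsf18 10.94 and 11.80, Il2ra 9.96 and 9.25, and Ikzf2 5.28 and 6.86. The part of the higher myeloid and lower T cell markers in the results below was not tested. In RNA pooled over a sample, fewer cells of a type and less RNA per cell cannot be told apart.

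The 10 factors did not move together. Fos and Fosb were at least 2-fold higher in Hdac3 deleted samples, Egr1 and Egr2 were at least 2-fold lower, Junb, Jund, Egr3 and Nr4a1 were lower by less, and Fosl2 and the brighter Jun probe set were not called. Of the 12 probe sets 3 were called higher and 7 lower at an adjusted p of 0.05. Over all probe sets, calls were common: 20.1% were called higher, 37.4% lower and 57.6% either way. Of the 13589 probe sets above background in both groups, as all 12 here were, 24.8% were higher, 45.0% lower and 69.8% either way. With a difference of at least 2-fold as well, 2 of the 12 were higher and 3 lower, beside 7.91% and 4.33% of all probe sets (12.2% either way) and 7.98% and 5.91% of those above background (13.9% either way). With median centring of each array Fos was at 0.97, short of 2-fold, and remained called. The median difference was -0.34 over the 12 and -0.17 over all probe sets. The 3 values of each group did not overlap in 11 of the 12 probe sets, beside 64.6% of all probe sets and 77.4% of those above background. Values are log2 expression on the scale deposited, each group has n = 3, errors are SD, and differences are Hdac3 deleted minus wild type, tested with limma.

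**Figure D1:**
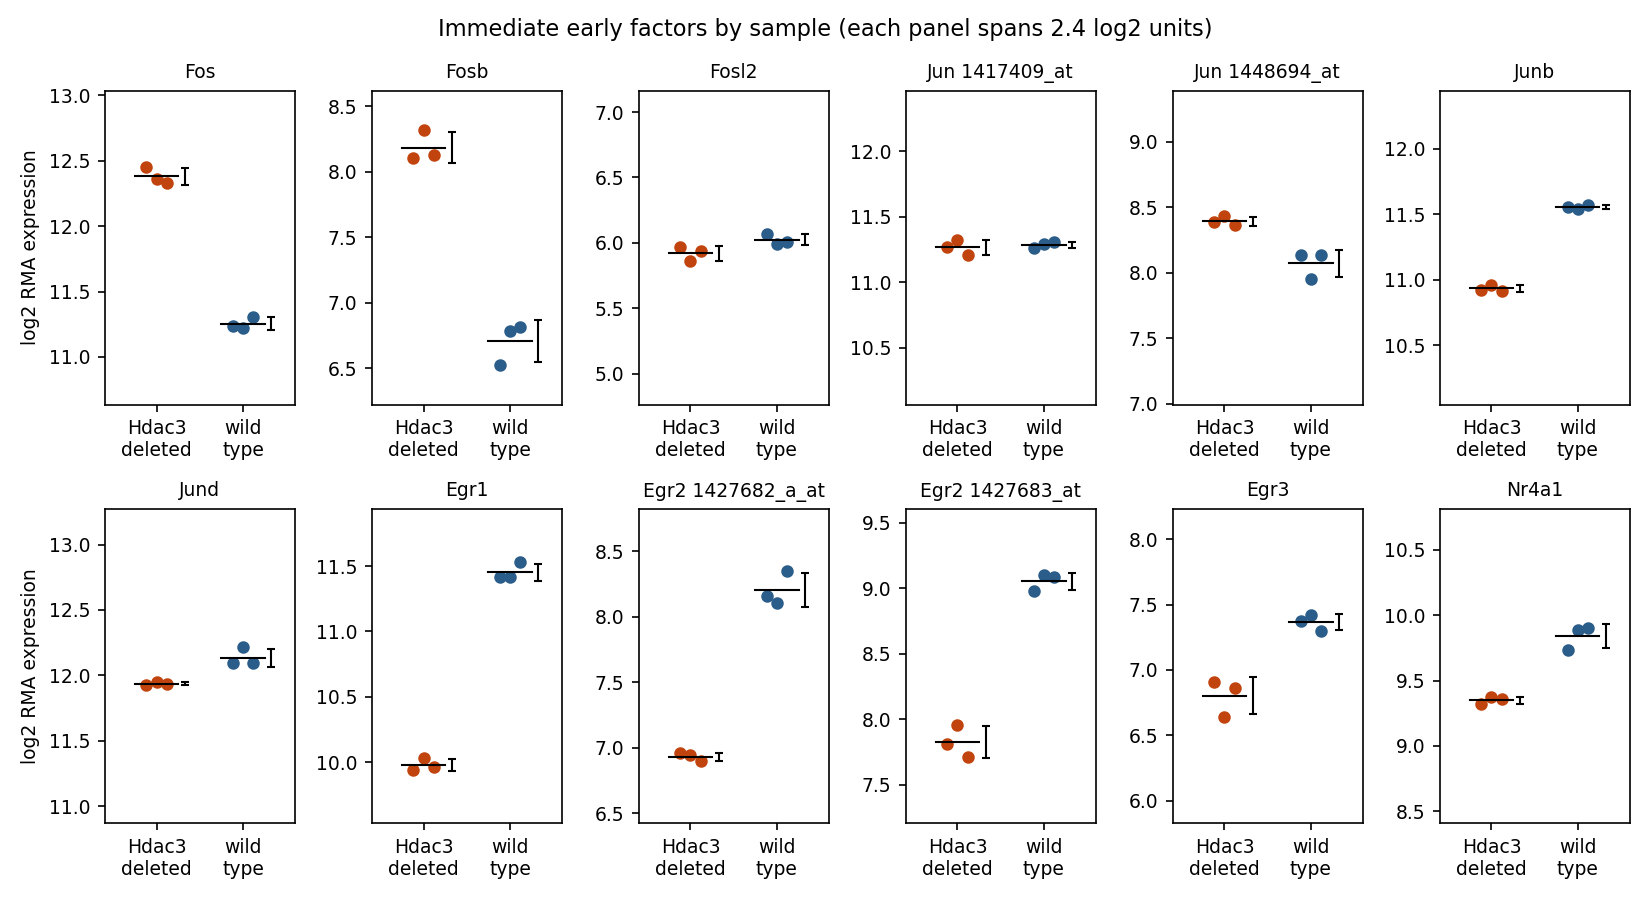
Log2 expression of each of the 12 probe sets (panels) in each sample, with Hdac3 deleted samples left and wild type samples right; lines are group means, bars beside them SD (n = 3). All panels cover the same number of log2 units on their own range. Fos and Fosb lie higher in the Hdac3 deleted samples and Egr1 and both Egr2 probe sets lower, while the Jun 1417409_at groups overlap.

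Among the FOS subunits, which cannot pair with each other and need a JUN partner to bind DNA, Fos and Fosb rose and Fosl2 did not pass the test. Fos, the best known immediate early gene and a strong transactivator, measured 12.45, 12.36 and 12.33 in Hdac3 deleted samples, against 11.24, 11.22 and 11.31 in wild type samples. Each Hdac3 deleted sample lay more than 1 log2 unit above each wild type sample. Its means were 12.38 ± 0.064 in Hdac3 deleted samples and 11.26 ± 0.047 in wild type samples, a difference of 1.13 (95% interval 0.98 to 1.28, limma adjusted p = 6.27e-06), or 2.18-fold. Fosb, whose product is related to Fos and is induced by the same stimuli, measured 8.10, 8.32 and 8.13 in Hdac3 deleted samples, against 6.52, 6.79 and 6.81 in wild type samples. The groups were again well apart, although the wild type samples spread more, with replicate 1 lowest. Fosb averaged 8.18 ± 0.118 in Hdac3 deleted samples and 6.71 ± 0.161 in wild type samples, a difference of 1.48 (95% interval 1.24 to 1.72, limma adjusted p = 1.75e-05), or 2.78-fold. Fosl2 encodes Fra-2, a FOS protein that lacks the strong activation domain of Fos. It measured 5.96, 5.86 and 5.93 in Hdac3 deleted samples, against 6.07, 5.99 and 6.01 in wild type samples. The highest Hdac3 deleted value lay just under the lowest wild type value, and the difference of -0.10 (95% interval -0.25 to 0.04, limma adjusted p = 0.181) was not called. With cyclic loess its sign turned (0.08, adjusted p = 0.295), and with median centring it was called lower (-0.26, adjusted p = 0.00866).

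The promoter windows of the 2 FOS genes that rose are shown because both are textbook targets of CREB and SRF. They are the 250 bases before the annotated start, 5′ to 3′ on the coding strand, from RefSeq (GRCm38.p6). Capitals mark matches to TGACG, the core of the cAMP response element, on either strand, to the EGR site GCGNGGGCG on either strand, to TATAAA on the coding strand and to the CArG box bound by SRF. The AP-1 site TGANTCA and the full element TGACGTCA, which contains TGACG, were searched as well and matched in no window of these factors. The Fos window is chr12:85473640-85473889, plus strand, and the Fosb window chr7:19310046-19310295, minus strand.
Fos: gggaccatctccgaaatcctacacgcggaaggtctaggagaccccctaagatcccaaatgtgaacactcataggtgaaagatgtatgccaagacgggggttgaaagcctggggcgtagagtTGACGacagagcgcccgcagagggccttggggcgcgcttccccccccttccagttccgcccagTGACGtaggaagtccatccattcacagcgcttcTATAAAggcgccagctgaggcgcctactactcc
Fosb: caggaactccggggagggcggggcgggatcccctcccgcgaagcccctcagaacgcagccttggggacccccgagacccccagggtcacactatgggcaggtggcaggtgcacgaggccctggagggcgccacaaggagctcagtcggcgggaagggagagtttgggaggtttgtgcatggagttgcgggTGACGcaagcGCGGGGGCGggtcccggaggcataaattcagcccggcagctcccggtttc
The Fos window held TGACG 129 and 66 bases before the start and TATAAA 33 bases before it. The Fosb window held TGACG 60 bases before the start and an EGR site 50 bases before it. Over 32817 promoter windows of the same length, 17.7% held TGACG, 4.70% the EGR site, 7.60% TATAAA, 1.47% the CArG box, 6.75% the AP-1 site and 1.55% the full element. A match is a description of letters and not evidence of binding. The Fos and Fosb windows held no CArG box. Bases more than 250 before the start were not searched, so a missing match does not show that a gene lacks an SRF site.

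The JUN subunits, which pair with FOS proteins or with each other, did not reach a 2-fold difference in any probe set. Jun was measured by 2 probe sets made from the same transcript record, and they differed. The brighter one, 1417409_at, measured 11.27, 11.32 and 11.21 in Hdac3 deleted samples, against 11.26, 11.29 and 11.31 in wild type samples. The groups overlapped and the difference was -0.02 (95% interval -0.16 to 0.12, limma adjusted p = 0.791). The dimmer one, 1448694_at, measured 8.39, 8.43 and 8.36 in Hdac3 deleted samples, against 8.13, 7.95 and 8.13 in wild type samples. There the groups did not overlap and the difference was 0.32 (95% interval 0.15 to 0.49, limma adjusted p = 0.00711), a 1.25-fold rise on the deposited scale. Neither direction of Jun is settled, since the brighter probe set was called lower with median centring (-0.18, adjusted p = 0.0237) and higher with cyclic loess (0.20, adjusted p = 0.0210), and the dimmer one was not called with median centring (0.16, adjusted p = 0.0735).

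Junb encodes a weaker activator than Jun that can oppose it, and in mice it is needed by regulatory T cells of the effector type. It measured 10.92, 10.96 and 10.92 in Hdac3 deleted samples, against 11.56, 11.54 and 11.57 in wild type samples. The spread within each group was small against the gap, and the means were 10.93 ± 0.023 in Hdac3 deleted samples and 11.56 ± 0.015 in wild type samples, a difference of -0.62 (95% interval -0.75 to -0.50, limma adjusted p = 6.01e-05), or 1.54-fold lower. Jund, the JUN gene that many resting cells express steadily, measured 11.93, 11.95 and 11.93 in Hdac3 deleted samples, against 12.09, 12.21 and 12.10 in wild type samples. The groups did not overlap but lay close, and the difference of -0.20 (95% interval -0.34 to -0.05, limma adjusted p = 0.0273) was near the median of all probe sets, -0.17. The Jund call was lost without Hdac3 deleted replicate 1, 2 or 3 (adjusted p = 0.0808, 0.0573 and 0.0709), without wild type replicate 2 (adjusted p = 0.0821) and when replicate numbers entered as a block (adjusted p = 0.0581), and with cyclic loess the difference was 0.02 (adjusted p = 0.787).

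The 3 EGR genes were lower in Hdac3 deleted samples. Egr1, a zinc finger activator induced through SRF and ELK factors, measured 9.94, 10.03 and 9.96 in Hdac3 deleted samples, against 11.41, 11.41 and 11.53 in wild type samples. Every Hdac3 deleted sample lay more than 1 log2 unit under every wild type sample. Egr1 averaged 9.98 ± 0.047 in Hdac3 deleted samples and 11.45 ± 0.067 in wild type samples, a difference of -1.47 (95% interval -1.62 to -1.32, limma adjusted p = 1.62e-06), or 2.78-fold lower, and no other probe set of the 12 had a lower difference. Egr2, which together with Egr3 restrains T cell activation in mice, had 2 probe sets that gave nearly the same difference. Probe set 1427683_at measured 7.81, 7.95 and 7.71 in Hdac3 deleted samples, against 8.98, 9.10 and 9.09 in wild type samples, and 1427682_a_at measured 6.96, 6.94 and 6.90 in Hdac3 deleted samples, against 8.16, 8.10 and 8.35 in wild type samples. Both showed separate groups, with differences of -1.23 (95% interval -1.42 to -1.04, limma adjusted p = 1.32e-05) and -1.27 (95% interval -1.46 to -1.09, limma adjusted p = 9.78e-06), 2.34-fold and 2.42-fold lower. Egr3 measured 6.91, 6.64 and 6.86 in Hdac3 deleted samples, against 7.38, 7.42 and 7.30 in wild type samples. Hdac3 deleted replicate 2 was the lowest and the groups did not overlap, with means of 6.80 ± 0.144 in Hdac3 deleted samples and 7.36 ± 0.062 in wild type samples and a difference of -0.56 (95% interval -0.76 to -0.36, limma adjusted p = 0.00114), 1.47-fold lower.

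Nr4a1, also called Nur77, is induced by antigen receptor signalling, and NR4A factors take part in the development of regulatory T cells in mice. It measured 9.32, 9.37 and 9.36 in Hdac3 deleted samples, against 9.73, 9.89 and 9.90 in wild type samples. The 3 Hdac3 deleted values lay close together and under every wild type value. Nr4a1 averaged 9.35 ± 0.027 in Hdac3 deleted samples and 9.84 ± 0.093 in wild type samples, a difference of -0.49 (95% interval -0.65 to -0.33, limma adjusted p = 0.000672), or 1.40-fold lower.

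The windows of Junb, Egr2 and Nr4a1 are shown for comparison with those of Fos and Fosb, since these genes went the other way. The Junb window is chr8:84978749-84978998, minus strand, the Egr2 window chr10:67537619-67537868, plus strand, which belongs to 1 of 5 annotated Egr2 starts and is shown because its matches include both TGACG and a CArG box, and the Nr4a1 window chr15:101266596-101266845, plus strand. Capitals mark the same motifs.
Junb: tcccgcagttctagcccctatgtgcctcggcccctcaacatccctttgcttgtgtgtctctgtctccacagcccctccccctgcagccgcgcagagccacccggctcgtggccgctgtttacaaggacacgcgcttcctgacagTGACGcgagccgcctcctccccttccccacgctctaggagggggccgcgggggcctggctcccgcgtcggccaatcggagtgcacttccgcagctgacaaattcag
Egr2: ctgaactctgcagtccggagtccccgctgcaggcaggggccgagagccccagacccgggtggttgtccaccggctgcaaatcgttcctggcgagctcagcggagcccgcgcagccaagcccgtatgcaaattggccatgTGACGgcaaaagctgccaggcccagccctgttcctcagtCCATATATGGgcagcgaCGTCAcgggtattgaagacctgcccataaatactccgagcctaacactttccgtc
Nr4a1: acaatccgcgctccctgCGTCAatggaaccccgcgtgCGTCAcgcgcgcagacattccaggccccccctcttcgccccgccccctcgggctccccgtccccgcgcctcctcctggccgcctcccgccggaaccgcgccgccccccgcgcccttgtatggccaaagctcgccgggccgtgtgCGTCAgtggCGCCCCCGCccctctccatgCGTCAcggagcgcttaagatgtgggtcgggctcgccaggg
The Junb window held TGACG 106 bases before the start. The Egr2 window held it 111 bases before the start and its reverse complement 55 bases before, with a CArG box 72 bases before. Of the other Egr2 windows, 2 overlap this one and hold the same matches, 1 holds a different CArG box and no TGACG, and 1 holds no match to any motif searched. The Nr4a1 window held the reverse complement at 233, 213, 69 and 40 bases before the start and a reversed EGR site at 60. A match to TGACG was thus found in windows before genes that rose and before genes that fell, and none was found in the windows of Jun, Jund and Fosl2. RefSeq windows were used for 8 of the 10 factors, and Egr1 and Egr3 are named only.

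**Figure D2:**
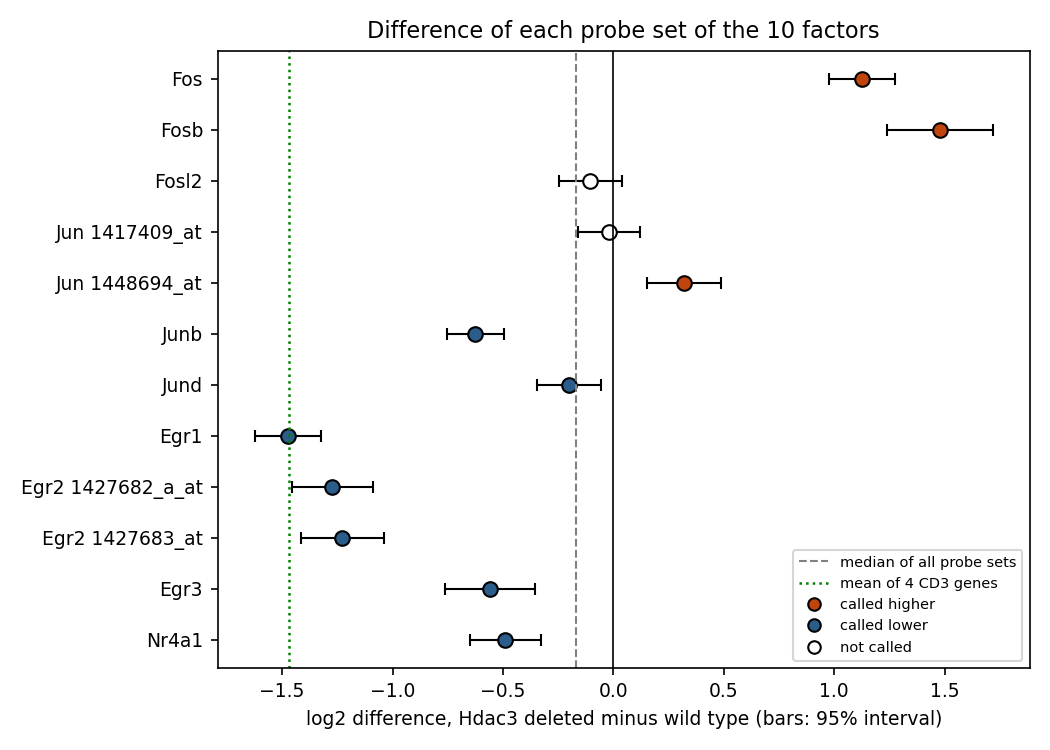
Log2 difference (Hdac3 deleted minus wild type) of each of the 12 probe sets with its 95% interval; red is called higher, blue called lower and white not called. The dashed line is the median of all probe sets (-0.17) and the dotted line the mean of the 4 CD3 genes (-1.47); the Egr1 interval (-1.62 to -1.32) contains the dotted line, and Fos (1.13) and Fosb (1.48) lie to the right of every other factor.

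Because a shift common to a whole array cancels in a ratio of 2 probe sets on it, the ratio of Fos to other factors was taken in each sample, for 3 pairs chosen after the values were seen. The log2 ratio of Fos to Egr1 was 2.51, 2.33 and 2.37 in Hdac3 deleted samples, against -0.18, -0.19 and -0.22 in wild type samples, a shift of 2.60. The ratio of Fos to Junb averaged 1.45 ± 0.0716 in Hdac3 deleted samples and -0.30 ± 0.0324 in wild type samples. That of Fos to Jun (1417409_at) averaged 1.11 ± 0.0715 in Hdac3 deleted samples and -0.03 ± 0.0385 in wild type samples. The pairs were picked from factors already seen to differ, so each shift only restates the difference between the values given above for its probe sets, and no test is given.

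How large a difference was depended on the scale, and for some factors so did its direction. The median of all probe sets was -0.17 on the deposited scale, -0.33 with median centring of each array and 0.00 with cyclic loess, and the share of called probe sets that were higher was 35.0%, 21.7% and 55.7%. On these 3 scales Fos (0.97 to 1.35) and Fosb (1.32 to 1.65) were called higher, and Junb (-0.78 to -0.41), Egr1 (-1.63 to -1.26), Egr3 (-0.72 to -0.39), Nr4a1 (-0.65 to -0.29) and both Egr2 probe sets (-1.43 to -1.05) were called lower. Expressed relative to the 4 CD3 genes of the same sample, a scale on which 98.6% of all probe sets were above 0 with a median of 1.30, Egr1 was at -0.01 (adjusted p = 0.931) and the Egr2 probe sets at 0.19 and 0.24 (adjusted p = 0.0525 and 0.0159). Egr1 thus fell on the deposited scale by nearly the same amount as the mean of the CD3 genes. Singly, the CD3 genes differed by -1.21 (Cd3d) to -1.59 (Cd247), so values near 0 on this scale depend on the reference gene. On the CD3 scale Egr3, Junb and Nr4a1 were higher by 0.91, 0.84 and 0.98, less than the median probe set, and Fos and Fosb by 2.59 and 2.94, more than it.

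**Figure D3:**
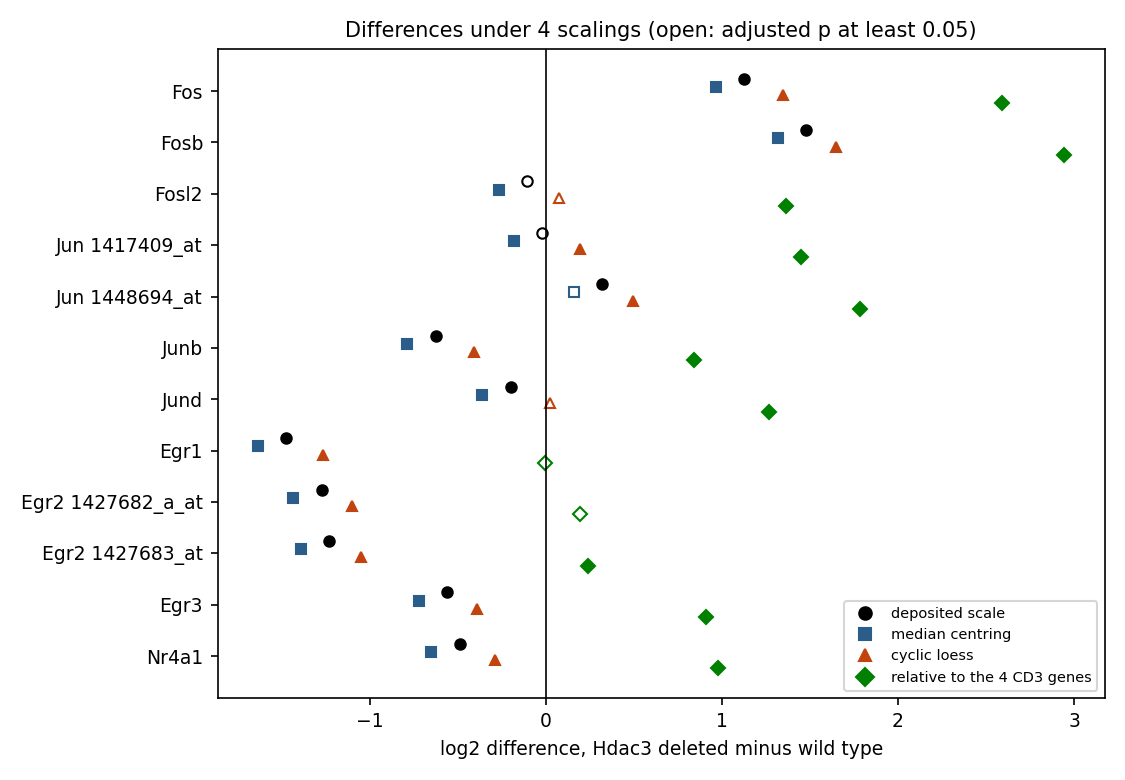
Log2 difference (Hdac3 deleted minus wild type) of the 12 probe sets on the deposited scale, with median centring, with cyclic loess and relative to the 4 CD3 genes; filled marks have an adjusted p under 0.05. Fos and Fosb stay right of 0 on all 4 scales, and Egr1 stays left of 0 on the first 3 and reaches -0.01 relative to CD3. Jund, Jun 1417409_at and Fosl2 cross 0 between median centring and cyclic loess.

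Fos, Egr1 and Nr4a1 were each compared with 8839 other genes by the distance between centred profiles over the 6 samples. The genes nearest to Fos were Ercc6l, Ncapd2 and Nsf (distance 0.070 to 0.080 log2), with differences of 1.13, 1.10 and 1.09. Those nearest to Egr1 were Tmem71, Bcl11b and Smco4 (0.079 to 0.106), with differences of -1.49, -1.46 and -1.45. Those nearest to Nr4a1 were Eif3l, Wipf1 and Arfrp1 (0.044 to 0.055), with differences of -0.51, -0.53 and -0.47. With 2 groups of 3, this likeness mostly ranks genes by the size of the group difference.

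The other members of the 3 families were low on these arrays, and limma called 0 of the 4 on the brightest probe set. Over all genes, each by its brightest probe set, 60.0% were called, 22.0% higher and 38.0% lower. At an unadjusted p under 0.05 there were 2 of the 4, Fosl1 and Nr4a3, and the share of all genes at that cut is not given here. With median centring 3 of the 4 were called lower, as were 7158 of all 12393 genes. Nr4a3, a relative of Nr4a1, measured 5.32, 5.14 and 5.51 in Hdac3 deleted samples, against 5.91, 5.64 and 5.49 in wild type samples, with overlapping groups and a difference of -0.36 (adjusted p = 0.0516). Nr4a2, the remaining NR4A receptor, differed by -0.14 (adjusted p = 0.271) and Egr4 by 0.01 (adjusted p = 0.968). Fosl1, which encodes Fra-1, was no brighter than background (3.82 in Hdac3 deleted samples and 4.07 in wild type samples, adjusted p = 0.0616). Dimmer probe sets of Nr4a2 and Nr4a3 were called lower but were no brighter than background in either group, so they give no readable direction.

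AP-1 subunits also pair with other basic leucine zipper proteins. The list here holds such partners together with related factors of that class, so it is not a list of AP-1 partners alone. Some of the listed genes differed by more than 2 log2 units. Of 18 measured, 9 were higher, 6 lower and 3 not called, with a median of 0.27 (0.11 with median centring and 0.46 with cyclic loess). Over all genes, 22.0% were higher and 38.0% lower, and the median was -0.17. Batf3, a partner of JUN proteins that dendritic cells need, was 10.4 ± 0.082 in Hdac3 deleted samples and at background level in wild type samples (5.04 ± 0.259), at least 36.7-fold higher (adjusted p = 8.86e-08). Jdp2, a JUN-binding repressor, averaged 8.89 ± 0.025 in Hdac3 deleted samples and 5.69 ± 0.265 in wild type samples, higher by 3.21 (adjusted p = 1.02e-06), while its second probe set was at background level in both. Mafg, a small MAF protein, was higher by 1.46 (adjusted p = 3.50e-06). Bach2, a repressor that limits AP-1 access in T cells, averaged 7.79 ± 0.051 in Hdac3 deleted samples and 9.84 ± 0.048 in wild type samples, and fell by 2.05 on the log2 scale (adjusted p = 2.46e-07). Batf, the JUN partner of effector T cells, was chosen after its values were seen; it differed by -0.54 (adjusted p = 0.000328). The macrophage and neutrophil markers and the CD3 genes moved in the same samples, in opposite directions.

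Other immediate early and early response genes went both ways, as the 10 factors did. Of 28 measured, 13 were higher, 8 lower and 7 not called, with a median of 0.12, which was -0.04 with median centring (11 higher and 12 lower) and 0.33 with cyclic loess. Over all genes 22.0% were higher and 38.0% lower, with a median of -0.17. Ier3, a survival gene induced by NF-kB, averaged 8.14 ± 0.115 in Hdac3 deleted samples and stayed at background level in wild type samples (4.26 ± 0.534), at least 7.93-fold higher (adjusted p = 1.06e-05). Sgk1, a kinase gene induced by serum and glucocorticoids, rose by 1.94 and Rgs2, a regulator of G protein signalling, by 1.49 (adjusted p = 3.76e-06 and 2.10e-06). Btg2, an antiproliferative gene, averaged 9.37 ± 0.016 in Hdac3 deleted samples and 10.66 ± 0.113 in wild type samples, and fell by 1.29 (adjusted p = 6.33e-06). Chosen after their values were seen, the phosphatase gene Dusp1 rose by 0.95 and Zfp36, whose product destabilises mRNA, by 0.79, beside Klf2 and Ier2 with differences of -0.91 and -0.56 (adjusted p = 1.28e-05, 3.34e-05, 4.03e-05 and 0.000438).

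Genes of the routes that induce these factors had calls in both directions. Of 17 measured MAP kinase, SRF and TCF genes 8 were lower, 5 higher and 4 not called, with a median of -0.20. Over all genes 38.0% were lower and 22.0% higher, with a median of -0.17, so lower calls outnumbered higher ones array-wide as well. With median centring 10 of the 17 were lower and 2 higher, and 6 were lower and 6 higher with cyclic loess. Of all 12393 genes, 7158 were lower and 2179 higher with median centring, and 2799 lower and 3628 higher with cyclic loess. Elk3, an ETS partner of SRF, averaged 8.11 ± 0.125 in Hdac3 deleted samples and 9.23 ± 0.152 in wild type samples, and fell by 1.12 (adjusted p = 6.77e-05). Srf itself, the serum response factor, averaged 7.68 ± 0.061 in Hdac3 deleted samples and 8.57 ± 0.042 in wild type samples, and fell by 0.89 (adjusted p = 1.88e-05). Rps6ka3, a kinase gene downstream of ERK, and Map2k6, a kinase gene upstream of p38, fell by 0.97 and 0.91 (adjusted p = 1.73e-05 and 3.04e-05). Of the 5 called higher, Braf was at background level in both groups, and the probe sets of Rasgrp1 were called in opposite directions; both genes are named after their values were seen.

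Of 8 calcineurin and NFAT genes 5 were lower, 2 higher and 1 not called, with a median of -0.30, beside 38.0% lower, 22.0% higher and a median of -0.17 over all genes. With median centring 6 were lower and 0 higher, and with cyclic loess 3 lower and 2 higher. All 12393 genes gave 7158 lower and 2179 higher with median centring, and 2799 lower and 3628 higher with cyclic loess. Nfatc1 and Nfatc3, which encode NFAT factors, fell by 0.76 and 0.64 (adjusted p = 2.25e-05 and 9.02e-05) and Ppp3cc, a calcineurin catalytic subunit gene, fell by 0.94 (adjusted p = 0.000881). Rcan1, an inhibitor of calcineurin that NFAT induces, rose by 0.36 (adjusted p = 0.0117).

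Of 10 measured EGR corepressors and genes reported as targets of EGR2 or EGR3 in mouse T cells 7 were lower, 2 higher and 1 not called. The median was -0.44. With median centring 8 were lower and 2 higher, with a median of -0.60, and with cyclic loess 5 were lower and 2 higher. Over all genes 38.0% were lower and 22.0% higher on the deposited scale, with a median of -0.17. With median centring 7158 of the 12393 genes were lower and 2179 higher, with a median of -0.33. With cyclic loess 2799 were lower and 3628 higher, with a median of 0.00. Dgka and Dgkz, diacylglycerol kinase genes that dampen signalling from the antigen receptor, fell by 1.31 and 0.79 (adjusted p = 1.84e-06 and 2.59e-05). The cell cycle inhibitor genes Cdkn1a and Cdkn1b went opposite ways, with a Cdkn1a difference of 2.09 and a Cdkn1b difference of -1.30 (adjusted p = 3.53e-05 and 4.70e-05). Nab1 and Nab2, which encode corepressors that bind EGR proteins, were chosen after their values were seen and differed by -0.39 and -0.50 (adjusted p = 0.00308 and 0.000225). No list was tested, so nothing is read from these counts beyond the values themselves. The CD3 difference of -1.47 and the myeloid rise accompany each of the lists. The shares given over all genes include genes at background level. Calls were more common among probe sets above background in both groups, with 24.8% higher and 45.0% lower.

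**Figure D4:**
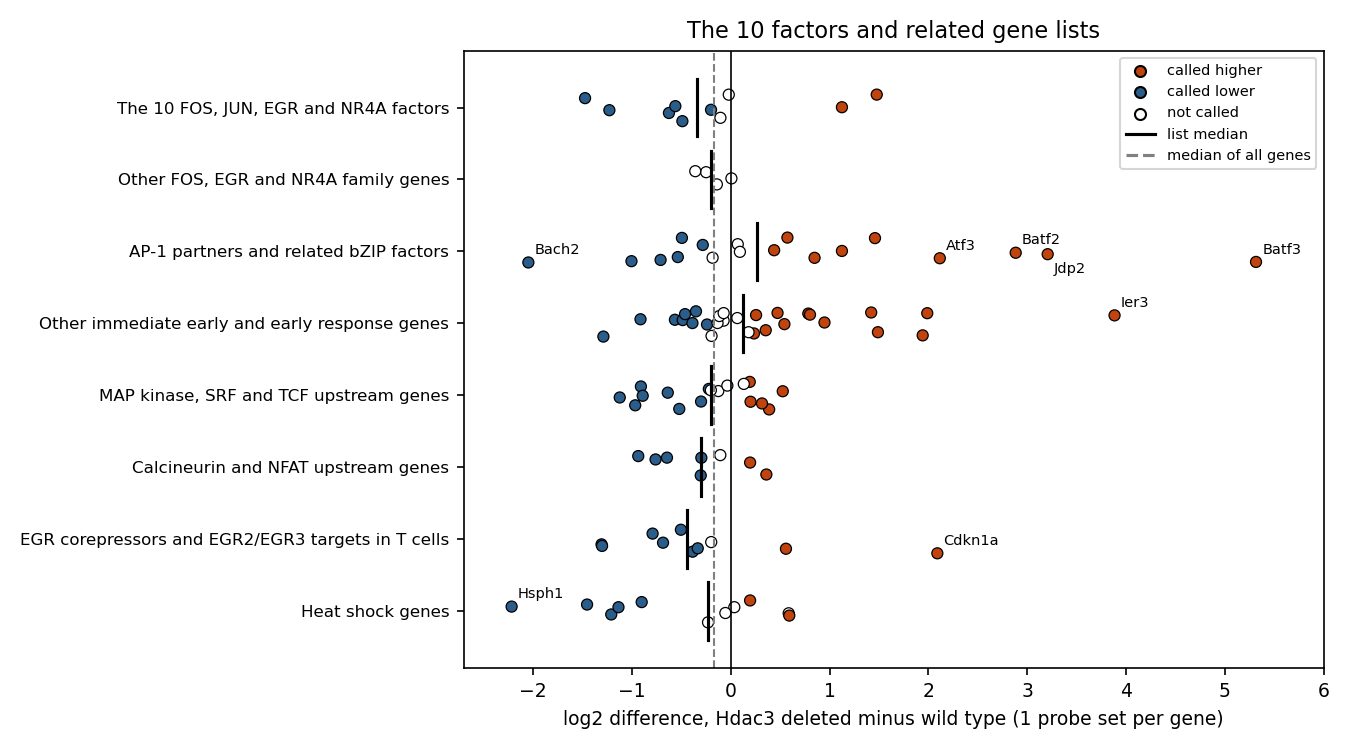
Log2 difference (Hdac3 deleted minus wild type) of each gene, 1 probe set per gene, in the 10 factors and the related lists; red is called higher, blue called lower, white not called, bars are list medians and the dashed line is the median of all genes (-0.17). The 10 factors span -1.47 to 1.48, and the list of partners and related factors spans -2.05 (Bach2) to 5.31 (Batf3). Vertical scatter within a row has no meaning.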

How the data were processed

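Total RNA was labelled with biotin and hybridised to 1 array per sample. Per the labels' design text, the authors ran RMA normalisation in MAYDAY 2.12, and each deposited value is the log2 expression of 1 probe set. RMA forces the probe intensities of all arrays onto 1 distribution, although the deposited probe set medians still differed (6.43 to 6.47 in Hdac3 deleted samples and 6.28 to 6.29 in wild type samples). This hides a change in total RNA per cell, and a strong rise of many genes can push others down. The number of arrays, 3 per group, limits the precision.

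The 64 control probe sets were left out of the 22690 in the table. Of the 22626 fitted, 20380 had 1 gene symbol, 691 several and 1555 none, and 20351 of those with 1 symbol matched the RefSeq table (GRCm38.p6) by Entrez identifier. For gene lists and counts over genes a gene was represented by its brightest such probe set (12393 genes). Samples were grouped by title. The 2-sided test was limma 3.58.1 under R 4.3.3, fitted over all probe sets with lmFit and eBayes, with Benjamini-Hochberg adjustment, in place of the authors' Student test, and a call is an adjusted p under 0.05. The fit was tested on simulated data. Python 3.11.15, pandas 2.3.3 and matplotlib 3.10.9 were used for tables and plots.

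The 10 factors and all lists were chosen with earlier results of these data known. Genes named besides the 10 follow a rule: up to 4 called members of each list with the smallest p, all 4 other family members, Hdac3, 3 myeloid and 4 CD3 genes, and the 3 nearest genes of Fos, Egr1 and Nr4a1; others are said to be chosen after their values were seen. Alternatives were the methods' t-test, the replicate number as a block, median centring, cyclic loess, values relative to the CD3 genes, a trended robust prior, a filter that removed the dimmest 33.3% of probe sets, and leaving out each sample.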

Additional observations from a re-analysis of the deposited data

How the results depend on the processing

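Of the 12 probe sets, those of Fos, Fosb, Junb, Egr1, Egr2, Egr3 and Nr4a1 kept their direction and their side of the threshold under all 12 alternatives other than the CD3 scale. The t-test, the replicate block, the filter and the trended prior leave each difference as it was, so only the call could change under them. With values relative to the 4 CD3 genes, which shift nearly every gene upward by construction, Junb was at 0.84, Nr4a1 at 0.98, Egr3 at 0.91, the Egr2 probe sets at 0.19 and 0.24, Jun 1417409_at at 1.45, Fosl2 at 1.36 and Jund at 1.27, all opposite in sign to the deposited scale, and Egr1 at -0.01 lost its call. On that scale 22308 probe sets were called, against 13032, and 18298 with at least a 2-fold difference, against 2769. With cyclic loess Jun 1417409_at was at 0.20, Jund at 0.022 and Fosl2 at 0.08; with median centring Fosl2 was called lower (-0.26, adjusted p = 0.00866); the cause was not tested. Leaving out 1 sample at a time gave 9 to 10 calls among the 12 probe sets, 5 with at least a 2-fold difference each time. With median centring 11 of the 12 were called and 4 were at least 2-fold, Fos falling short of 2-fold (0.97), and on the CD3 scale 10 were called and 6 were at least 2-fold. Median centring raised the calls over all 22626 probe sets too, to 16647 from 13032, and those at least 2-fold to 3091 from 2769. Leaving out 1 sample gave 11451 to 12261 calls over all probe sets.

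Replicate numbers recur in both groups, but deviations of same-numbered samples correlated at 0.092, 0.084 and -0.189, so the numbers were not taken as pairs. With the replicate number as a block 9 of the 12 probe sets were called, the Jund call being lost (adjusted p = 0.0581), and 12534 of all probe sets.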

Other observations

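Heat shock genes, which share stress induction with immediate early genes, were mixed. Of 11 measured, 5 were lower, 2 higher and 4 not called, with a median of -0.23. Over all genes 38.0% were lower and 22.0% higher, and the median was -0.17. With median centring 7 of the 11 were lower and 1 higher, beside 7158 lower and 2179 higher of all 12393 genes. With cyclic loess 5 were lower and 4 higher, beside 2799 lower and 3628 higher of all genes. Hsph1, a large heat shock protein gene, averaged 8.11 ± 0.039 in Hdac3 deleted samples and 10.3 ± 0.073 in wild type samples, and fell by 2.22 (limma adjusted p = 2.04e-07). The co-chaperone genes Dnajb1 and Dnaja1 fell by 1.45 and fell by 1.21, and Hspe1, the mitochondrial co-chaperonin gene, fell by 1.14 (adjusted p = 1.07e-06, 2.55e-06 and 1.72e-05). The myeloid rise and the CD3 difference of -1.47 accompany these values too, and their part was not tested.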
